A study of Mus musculus with 16 samples.

Results

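The core histones H2A, H2B, H3 and H4 wrap DNA into nucleosomes, and the linker histone H1 binds where the DNA enters and leaves them. The histone genes were followed here in the livers of 13 old male C57BL/6 mice on Illumina bead arrays. A probe belonged to the set when its gene symbol in the array's annotation was that of a clustered or variant histone gene. Of the 25697 probes of the array, 69 did so, for 62 genes, and 36 of them (each of a different gene) were detected, which means a detection p under 0.05 on every array of at least 1 diet group. Detected probes were 31 of replication-dependent cluster genes and 5 of variant genes (H2aj, H2ax, H2az1, H3f3a and H3f3b).

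All mice ate the purified AIN-93G diet, were bought at 104 weeks of age and were assigned at random to 3 groups. EOW mice (5 mice) alternated weekly between that diet with 1% metformin added and the diet alone, 2WM mice (4 mice) had it for 2 weeks in a row each month, and SD mice (4 mice) ate the standard diet alone. Livers were taken after 17 weeks. The comparison asks how each metformin schedule, set against the plain diet, leaves the RNA of the liver, and here of its histone genes.

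Replication-dependent histone genes sit in clusters, lack introns and are transcribed mainly in S phase. Their messages end in a stem-loop in place of a poly(A) tail, although some polyadenylated forms are made in cells that have stopped dividing. Variant genes such as H3f3a, H3f3b and H2az1 lie elsewhere in the genome, are polyadenylated and are expressed outside S phase too, so that non-dividing cells such as most hepatocytes can replace nucleosomes. The RNA for these arrays was copied from an oligo-dT primer, so a cluster probe reads mainly what carries a poly(A) tail, and how far the signal follows all messages of a cluster gene was not tested.

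Levels below are log2 signals scaled within each array, with 0 at the mean log2 signal of that array, in log2 units. The ± values are the standard deviation between mice. Tests are limma's moderated tests over the 3 groups, with p-values adjusted by the Benjamini-Hochberg method over all 11143 detected probes of the array. The mice on both metformin schedules are set against the same 4 SD mice. In liver tissue, fewer cells of a type and less RNA per cell cannot be told apart. Histone genes of a class are near-identical in sequence, so a probe may also read a neighbouring copy, and the single gene named by a probe is uncertain.

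Mouse EOW 4 stood apart from the other 12. Its profile correlated with theirs at 0.841 to 0.888, against 0.950 to 0.991 among those 12, and its mean level over the detected T and NK cell markers (4 of 9) was 3.88, against -0.08 to 0.40 in the other EOW mice, 0.22 to 0.44 in 2WM mice and -0.25 to 0.35 in SD mice. Results that move with this mouse are also given without it. Hepatocyte markers (5 of 6 detected) averaged 6.19 to 7.03 in EOW mice, 6.40 to 6.82 in 2WM mice and 6.12 to 6.66 in SD mice, so all mice carried the markers of liver. All 5 had higher means than in SD livers on both schedules, with a median difference of 0.25 for EOW (0.42 without EOW 4) and 0.28 for 2WM, and 0 of them passed the adjusted threshold. The part of this shift in the histone values below was not tested. Of the erythroid markers, Hba-a1 and Alas2 were detected. The mean of the detected pair was 0.13 to 2.82 in EOW mice, 1.44 to 2.42 in 2WM mice and 2.59 to 3.07 in SD mice, so it was lower in all 2WM mice and in 4 of 5 EOW mice than in any SD mouse. The part of blood cell content in the histone values below was not tested.

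Promoters of 5 genes on which the results turn are shown first, because the classes differ in the motifs around their start sites. Each is the 200 bases before the annotated start of the gene (RefSeq, GRCm38.p6), and 33 of the 36 detected genes had an entry. Capitals mark 3 motifs searched on both strands: the octamer ATTTGCAT (reverse ATGCAAAT) known from H2B promoters, the CCAAT box (reverse ATTGG) and the TATA box TATAAA (reverse TTTATA). H3c6 lies on the minus strand at chr13:23562386-23562585, H4c3 on the minus strand at chr13:23698459-23698658, H2bc12 on the plus strand at chr13:22035621-22035820, H3c13 on the plus strand at chr3:96268454-96268653 and H3f3b on the minus strand at chr11:116024505-116024704.
H3c6: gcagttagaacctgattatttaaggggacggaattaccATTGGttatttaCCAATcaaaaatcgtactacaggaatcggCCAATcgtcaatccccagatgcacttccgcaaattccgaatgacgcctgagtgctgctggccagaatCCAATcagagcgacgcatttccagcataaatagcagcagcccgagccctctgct
H4c3: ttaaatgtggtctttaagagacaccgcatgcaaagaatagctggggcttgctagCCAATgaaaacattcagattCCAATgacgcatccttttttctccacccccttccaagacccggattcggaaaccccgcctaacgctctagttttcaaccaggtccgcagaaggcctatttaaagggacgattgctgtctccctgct
H2bc12: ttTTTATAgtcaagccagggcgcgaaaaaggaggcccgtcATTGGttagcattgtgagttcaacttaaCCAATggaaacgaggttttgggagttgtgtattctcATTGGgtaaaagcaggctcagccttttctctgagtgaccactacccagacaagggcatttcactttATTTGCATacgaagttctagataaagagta
H3c13: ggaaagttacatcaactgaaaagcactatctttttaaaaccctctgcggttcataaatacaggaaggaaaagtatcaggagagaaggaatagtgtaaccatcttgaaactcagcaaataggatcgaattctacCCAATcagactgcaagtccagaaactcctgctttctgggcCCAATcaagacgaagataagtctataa
H3f3b: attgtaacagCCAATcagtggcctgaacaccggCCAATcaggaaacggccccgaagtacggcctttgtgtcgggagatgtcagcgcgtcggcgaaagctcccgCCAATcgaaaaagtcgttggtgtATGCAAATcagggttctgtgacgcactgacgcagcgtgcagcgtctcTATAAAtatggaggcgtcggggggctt
H3c6 carried 4 CCAAT boxes and H4c3 carried 2, with neither octamer nor TATAAA in the window. H2bc12 had the octamer 30 bases before its start, and the variant gene H3f3b had an octamer on the reverse strand 74 bases before its start together with TATAAA at 27.

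Over 300-base windows that reach 50 bases past the start, the octamer was found in 3 of 7 H2B genes, 3 of 10 H2A genes, 0 of 4 cluster H3 genes, 0 of 7 H4 genes and 1 of 4 variants. That is 21.2% of the detected histone genes, against 1.97% of all 27025 genes of the table. A CCAAT box lay in the window of every H2A, H2B and cluster H3 gene of the table, past the start in H3c14, but of only 1 of 7 H4 genes, H4c3 (81.8% of detected histone genes, against 41.1% of all). TATAAA was found in the windows of 8 of 10 H2A and 5 of 7 H4 genes, and in H2ac7, H2ac12, H2ac15 and H2ac18 it lay past the start (54.5% of detected histone genes, against 15.7% of all). These matches describe letters in a window and say nothing of which factor was bound.

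No histone probe passed the adjusted threshold of 0.05 in EOW against SD livers, where 0% of all probes passed. The direction was uneven between classes. At an unadjusted p under 0.05, 14 of the 36 probes were lower in EOW livers (8.25% of all probes were), all of them cluster genes of chromosome 13, and 3 were higher (5.59% of all). Among the 25 probes detected on every array, 9 were lower (8.61% of all probes so detected) and 3 higher (6.02%). In 5 probes, every EOW mouse lay below every SD mouse (2.4% of all probes), and in 0 probes above (1.75%). Each of those 5 had fallen under the detection threshold on at least 1 EOW array, and a probe that is detected in SD livers alone could enter the set only by being high there. Without EOW 4, 14 were lower (8.37% of all) and 1 was higher (5.64%). Without SD 3 the count of 14 dropped to 8, and the count of 3 also dropped to 1 without EOW 5, SD 1 or SD 3.

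**Figure D1:**
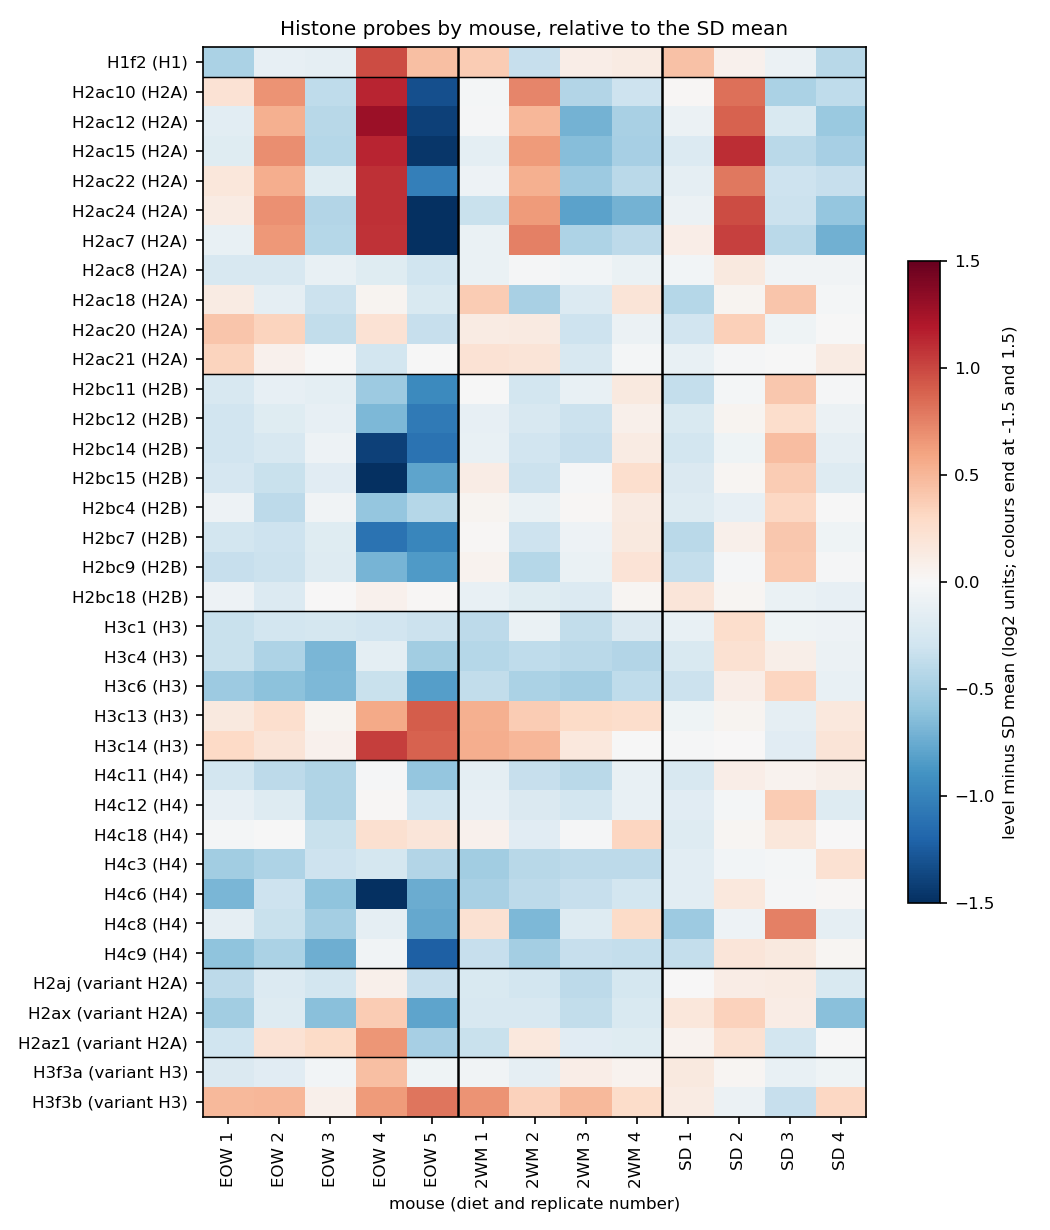
Level of each of the 36 detected histone probes in each mouse minus the mean of the 4 SD mice, in log2 units, with mice in columns (EOW, 2WM, SD) and probes in rows by class; colours end at -1.5 and 1.5. The 6 H2A probes of chromosome 13 detected on at least 15 arrays run together across mice of every diet, while H2ac8 varies less. The H2B probes of chromosome 13 are lowest in EOW 4 and EOW 5, and H3c13, H3c14 and H3f3b are above the SD mean in most metformin-fed mice.

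Most H3 and H4 genes of the large cluster on chromosome 13 had lower means in EOW than in SD livers. H3c6 (Hist1h3e), which encodes a replication-dependent H3, had levels of -0.35, -0.43, -0.49, -0.14 and -0.64 in EOW livers, -0.18, -0.28, -0.32 and -0.19 in 2WM livers and -0.13, 0.29, 0.52 and 0.08 in SD livers. All metformin-fed mice lay below all SD mice, the nearest pair being EOW 4 and SD 1. The log2 difference from SD was -0.60 (SE 0.13; limma adjusted p = 0.134; exact two-sided permutation p = 0.0159) for EOW and -0.43 (SE 0.14; limma adjusted p = 0.65; exact permutation p = 0.0286, the smallest that 4 against 4 mice allow) for 2WM. Without EOW 4 the EOW difference was -0.67 with a limma adjusted p of 0.0922. The probe was detected on 5 of 6 EOW arrays.

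H4c3 (Hist1h4c) encodes H4, a protein that is the same whichever H4 gene it comes from. Its levels were -0.71, -0.66, -0.51, -0.46 and -0.63 in EOW livers, -0.72, -0.61, -0.60 and -0.59 in 2WM livers and -0.36, -0.24, -0.23 and 0.03 in SD livers. Again no metformin-fed mouse reached the lowest SD mouse, SD 1. The difference was -0.40 for EOW (SE 0.09; limma adjusted p = 0.153) and -0.43 for 2WM (SE 0.10; limma adjusted p = 0.407). This probe was near the detection threshold, since it was detected on 3 of 6 EOW arrays, 3 of 5 2WM arrays and 5 of 5 SD arrays. It entered the set through the SD arrays alone, where it is high, so its separation from SD is a description. When arrays were weighted by their quality, H3c6 in EOW livers (-0.66, limma adjusted p = 0.0389) was among 12 of all 11143 probes that passed the threshold. With the same weights, H4c3 in 2WM livers (-0.41, limma adjusted p = 0.0404) was among 41 of all probes that passed. Since H4c3 entered through SD arrays alone, this too is a description.

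H4c9 (Hist1h4i) was detected on every array and had levels of 0.24, 0.36, 0.11, 0.79 and -0.39 in EOW livers, 0.50, 0.33, 0.50 and 0.49 in 2WM livers and 0.48, 1.02, 0.98 and 0.87 in SD livers. The SD mice other than SD 1 exceeded every metformin-fed mouse. The difference was -0.62 for EOW (SE 0.19; limma adjusted p = 0.219) and -0.39 for 2WM (SE 0.20; limma adjusted p = 0.854). H4c6 (Hist1h4f) had levels of -0.27, 0.11, -0.18, -1.57 and -0.32 in EOW livers, -0.07, 0.03, 0.07 and 0.14 in 2WM livers and 0.26, 0.58, 0.41 and 0.43 in SD livers. Here too the groups did not overlap, but EOW 4 was far below the rest, with a signal of 72.4 against 191.8 to 387.8 in the other mice. The EOW difference of -0.86 (SE 0.26; limma adjusted p = 0.207) became -0.58 without that mouse (limma adjusted p = 0.0922), and the 2WM difference was -0.38 (SE 0.27; limma adjusted p = 0.909).

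H3c4 (Hist1h3d) followed the same pattern on every array, with levels of -0.24, -0.37, -0.59, -0.05 and -0.43 in EOW livers, -0.33, -0.29, -0.32 and -0.34 in 2WM livers and -0.14, 0.32, 0.18 and 0.01 in SD livers. EOW 4 exceeded SD 1, while the 2WM mice all lay below SD 1. The differences were -0.43 for EOW (SE 0.12; limma adjusted p = 0.195) and -0.41 for 2WM (SE 0.12; limma adjusted p = 0.623). H3c1 (Hist1h3a) had levels of -0.76, -0.70, -0.69, -0.71 and -0.74 in EOW livers, -0.82, -0.52, -0.79 and -0.64 in 2WM livers and -0.53, -0.16, -0.49 and -0.50 in SD livers. Its differences were -0.30 for EOW (limma adjusted p = 0.227) and -0.27 for 2WM (limma adjusted p = 0.759), and it was detected on 2 of 6 EOW arrays, 2 of 5 2WM arrays and 5 of 5 SD arrays. H4c11 (Hist1h4j) had levels of -0.00, -0.11, -0.18, 0.26 and -0.30 in EOW livers, 0.12, -0.07, -0.13 and 0.17 in 2WM livers and 0.03, 0.37, 0.32 and 0.37 in SD livers. All its SD mice but SD 1 were above all others (EOW difference -0.34, limma adjusted p = 0.261; 2WM difference -0.25, limma adjusted p = 0.844).

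SD 1 was the lowest SD mouse in each of these 7 H3 and H4 probes, and EOW 4 was the highest EOW mouse in 5 of them. The remaining H4 probes differed less from SD, with EOW and 2WM differences of -0.38 and -0.09 for H4c8, -0.21 and -0.18 for H4c12, and 0.01 and 0.05 for H4c18. Over all 7 H4 probes the median difference was -0.38 for EOW and -0.25 for 2WM, with 6 of 7 negative in each. Over all tested probes of the array these medians were -0.03 and -0.03. A normexp background correction (neqc) stretched the scale of such dim probes, to an EOW difference of -1.25 for H3c6 and -1.05 for H4c3, with no call at the adjusted threshold.

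**Figure D2:**
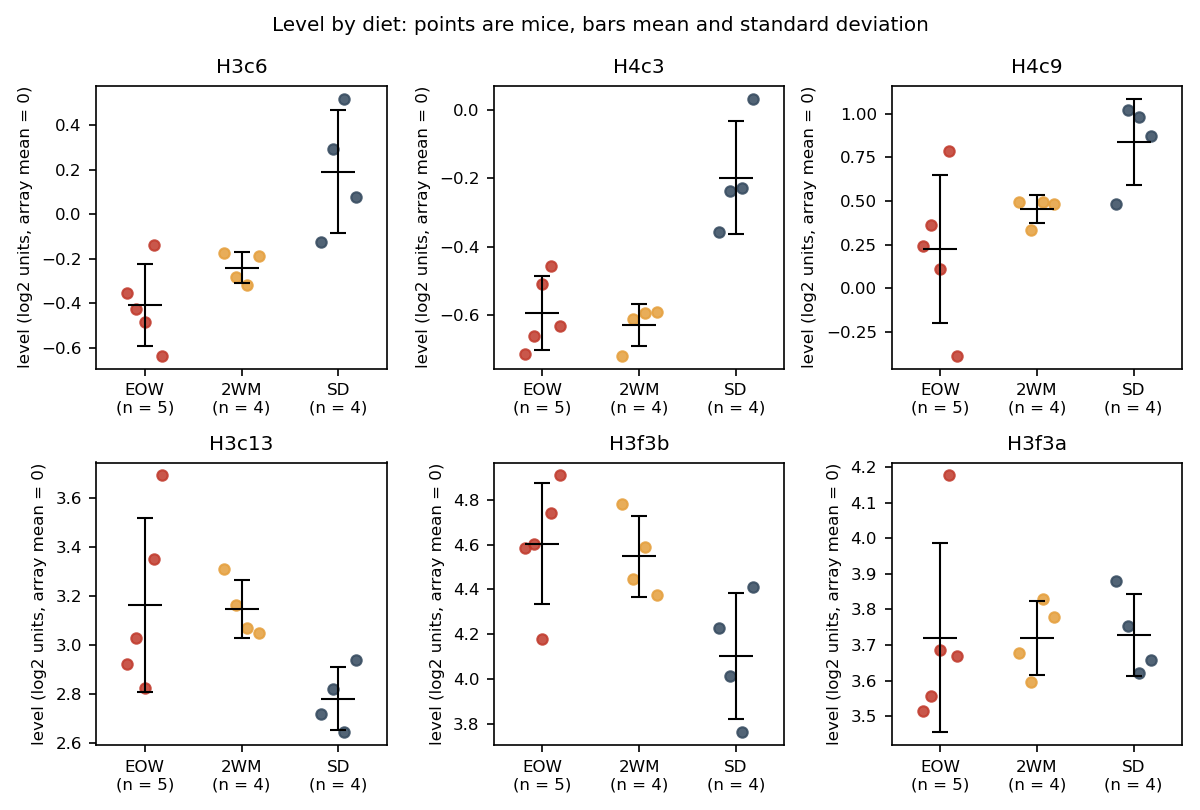
Level of 6 histone genes in log2 units (0 is the mean of the array) for each mouse on EOW (n = 5), 2WM (n = 4) and SD (n = 4); points are mice, and bars are the mean and standard deviation. H3c6 and H4c3 separate all metformin-fed mice from all SD mice, H4c9 and H3f3b overlap through a few mice, every 2WM mouse exceeds every SD mouse in H3c13, and H3f3a has its EOW, 2WM and SD means at 3.72, 3.72 and 3.73.

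The H3 genes of the smaller cluster on chromosome 3 lay on the other side of SD. H3c13 (Hist2h3b) had levels of 2.92, 3.03, 2.82, 3.35 and 3.69 in EOW livers, 3.31, 3.16, 3.07 and 3.05 in 2WM livers and 2.72, 2.82, 2.64 and 2.94 in SD livers. Every 2WM mouse exceeded every SD mouse, whereas EOW 1 and EOW 3 lay within the SD range. The difference was 0.38 for EOW (SE 0.16; limma adjusted p = 0.306) and 0.37 for 2WM (SE 0.16; limma adjusted p = 0.831; exact permutation p = 0.0286). H3c14 (Hist2h3c1) had 2.93, 2.84, 2.70, 3.68 and 3.52 in EOW livers, 3.19, 3.14, 2.79 and 2.63 in 2WM livers and 2.63, 2.64, 2.46 and 2.83 in SD livers. EOW 4 and EOW 5 were the highest, and the EOW difference of 0.49 (SE 0.20; limma adjusted p = 0.306) was 0.36 without EOW 4, while the 2WM difference was 0.30 (limma adjusted p = 0.908). Another H3c14 probe was detected on 5 of 16 arrays and is not in the set.

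The replication-independent H3 genes encode the same protein, the H3 variant that the chaperones HIRA and DAXX place outside S phase, and both were detected on every array. H3f3b had levels of 4.58, 4.60, 4.18, 4.74 and 4.91 in EOW livers, 4.78, 4.45, 4.59 and 4.37 in 2WM livers and 4.23, 4.01, 3.76 and 4.41 in SD livers. Only EOW 3 and 2WM 4 lay under the highest SD mouse, SD 4. Its difference was 0.50 for EOW (SE 0.16; limma adjusted p = 0.227; exact permutation p = 0.0476) and 0.44 for 2WM (SE 0.17; limma adjusted p = 0.759; exact permutation p = 0.0571). H3f3a had 3.51, 3.56, 3.69, 4.18 and 3.67 in EOW livers, 3.68, 3.60, 3.83 and 3.78 in 2WM livers and 3.88, 3.75, 3.62 and 3.66 in SD livers. The diets overlapped throughout, and the difference was -0.01 for EOW (95% interval -0.28 to 0.27) and -0.01 for 2WM (95% interval -0.29 to 0.28). Whether the diet differences of the H3f3a and H3f3b probes differ from each other was not tested.

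H2B probes of chromosome 13 had lower means in EOW livers and means near those of SD in 2WM livers. The median difference over all 8 detected H2B probes was -0.47 for EOW, with 8 of 8 negative (6146 of all 11143 probes were) and 6 lower at an unadjusted p under 0.05 (8.25% of all), and -0.06 for 2WM. H2bc7 (Hist1h2bf) had levels of 4.58, 4.55, 4.67, 3.75 and 3.87 in EOW livers, 4.87, 4.55, 4.78 and 5.00 in 2WM livers and 4.45, 4.93, 5.26 and 4.79 in SD livers. EOW 4 and EOW 5 lay well below the rest, and the other EOW mice lay within the SD range. The EOW difference was -0.57 (SE 0.21; limma adjusted p = 0.281), and that between EOW and 2WM was -0.51 (limma adjusted p = 0.43).

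H2bc12 (Hist1h2bk) had 2.44, 2.55, 2.62, 2.06 and 1.67 in EOW livers, 2.62, 2.49, 2.42 and 2.81 in 2WM livers and 2.51, 2.78, 3.00 and 2.65 in SD livers (EOW difference -0.47, SE 0.18, limma adjusted p = 0.295). H2bc9 (Hist1h2bh) had 3.88, 3.90, 4.03, 3.53 and 3.37 in EOW livers, 4.28, 3.79, 4.12 and 4.43 in 2WM livers and 3.87, 4.20, 4.62 and 4.20 in SD livers (EOW difference -0.48, limma adjusted p = 0.273). H2bc4 (Hist1h2bc) had 4.84, 4.52, 4.86, 4.33 and 4.48 in EOW livers, 4.95, 4.81, 4.94 and 5.05 in 2WM livers and 4.73, 4.79, 5.23 and 4.91 in SD livers (EOW difference -0.31, limma adjusted p = 0.328). In each of these probes the lowest mice were EOW 4 and EOW 5. H2bc14 had 2.89, 2.94, 3.10, 1.78 and 2.06 in EOW livers, 3.06, 2.89, 2.83 and 3.30 in 2WM livers and 2.91, 3.11, 3.64 and 3.04 in SD livers, and its EOW difference of -0.62 (limma adjusted p = 0.319) was -0.43 without EOW 4. H2bc11 had 4.06, 4.18, 4.15, 3.76 and 3.35 in EOW livers, 4.30, 4.02, 4.19 and 4.45 in 2WM livers and 3.95, 4.27, 4.70 and 4.28 in SD livers (EOW difference -0.40, limma adjusted p = 0.358). H2bc18, the detected H2B gene of chromosome 3, differed by -0.04 in EOW livers and -0.12 in 2WM livers.

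The 7 H2B probes of chromosome 13 kept a common order of mice. SD 3 was the highest of 13 mice in 7 of 7, 2WM 4 was the second in 7 of 7, and the lowest was EOW 4 in 4 and EOW 5 in 3. Their median deviation from the SD mean was -0.27, -0.31, -0.15, -0.69 and -0.96 in EOW mice 1 to 5. The H2B probes may share target messages, so neither their common order nor their common direction is that of 7 independent measurements. H2bc15 (Hist1h2bn) was singular in EOW 4, where its level was -1.61 and its signal 70.1, against signals of 1633.9 to 4665.8 in the other 12 mice. Its levels were 3.22, 3.13, 3.30, -1.61 and 2.68 in EOW livers, 3.58, 3.15, 3.45 and 3.72 in 2WM livers and 3.25, 3.50, 3.85 and 3.28 in SD livers. The EOW difference of -1.33 (SE 0.80; limma adjusted p = 0.473) was -0.39 without EOW 4 (limma adjusted p = 0.341). H2ac15, which starts 164 bases away on the opposite strand, had its highest level of all mice in EOW 4, at 1.98.

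H2A probes of chromosome 13 other than H2ac8 varied widely between mice of the same diet. H2ac24 (Hist1h2ap) had levels of 2.21, 2.78, 1.66, 3.19 and 0.05 in EOW livers, 1.76, 2.73, 1.29 and 1.38 in 2WM livers and 2.01, 3.08, 1.77 and 1.51 in SD livers. EOW 4, SD 2, EOW 2 and 2WM 2 were high, so each diet held at least 1 high mouse, and EOW 5 was far below all others. The same mice stood out in 6 H2A probes (H2ac7, H2ac10, H2ac12, H2ac15, H2ac22 and H2ac24). EOW 4 was the highest and SD 2 the second in 6 of 6, EOW 2 or 2WM 2 came next, and EOW 5 was the lowest in 6 of 6. The spread from the lowest to the highest mouse was 2.12 to 3.14, and the standard deviation within diets exceeded that of 95.6% to 98.5% of all tested probes. Repeat arrays of the same mouse differed by a median of 0.10 and at most 0.45 over the histone probes. Only mouse 1 of each diet had a repeat, so EOW 4, EOW 5, SD 2 and 2WM 2 had none. The differences from SD were -0.11 to 0.12 for EOW and -0.30 to -0.01 for 2WM, and the smallest unadjusted p of the 6 probes in any comparison was 0.533. Without EOW 4 the EOW differences were -0.42 to -0.12. These probes may share target messages, so their common order is not that of 6 independent measurements.

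Genes of DNA replication and proliferation were read in the same mice. The mean level over the 19 detected genes of that list (38 in all, none of them a histone) was 0.48, 0.81, 0.65, 1.07 and 0.26 in EOW mice, 0.66, 0.89, 0.60 and 0.61 in 2WM mice and 0.78, 0.97, 0.43 and 0.46 in SD mice. By this mean the 4 highest mice were EOW 4, SD 2, 2WM 2 and EOW 2 and the lowest was EOW 5. By the median deviation of the 19 genes from their SD means, 2WM 2 (0.303), EOW 4 (0.288), SD 2 (0.271) and SD 1 (0.167) were the highest and EOW 5 (-0.374) the lowest, so the order depends on the summary. EOW 4 was the highest mouse in 7 of the 19 genes and EOW 5 the lowest in 10. Mcm6, a subunit of the replicative helicase chosen after its values were seen, had 0.07, 0.42, 0.18, 1.67 and -0.34 in EOW livers, 0.21, 0.83, -0.01 and 0.00 in 2WM livers and 0.21, 0.63, -0.42 and -0.28 in SD livers. EOW 4 is also the mouse with high T and NK cell markers. The part of dividing cells in the H2A levels was not tested.

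**Figure D3:**
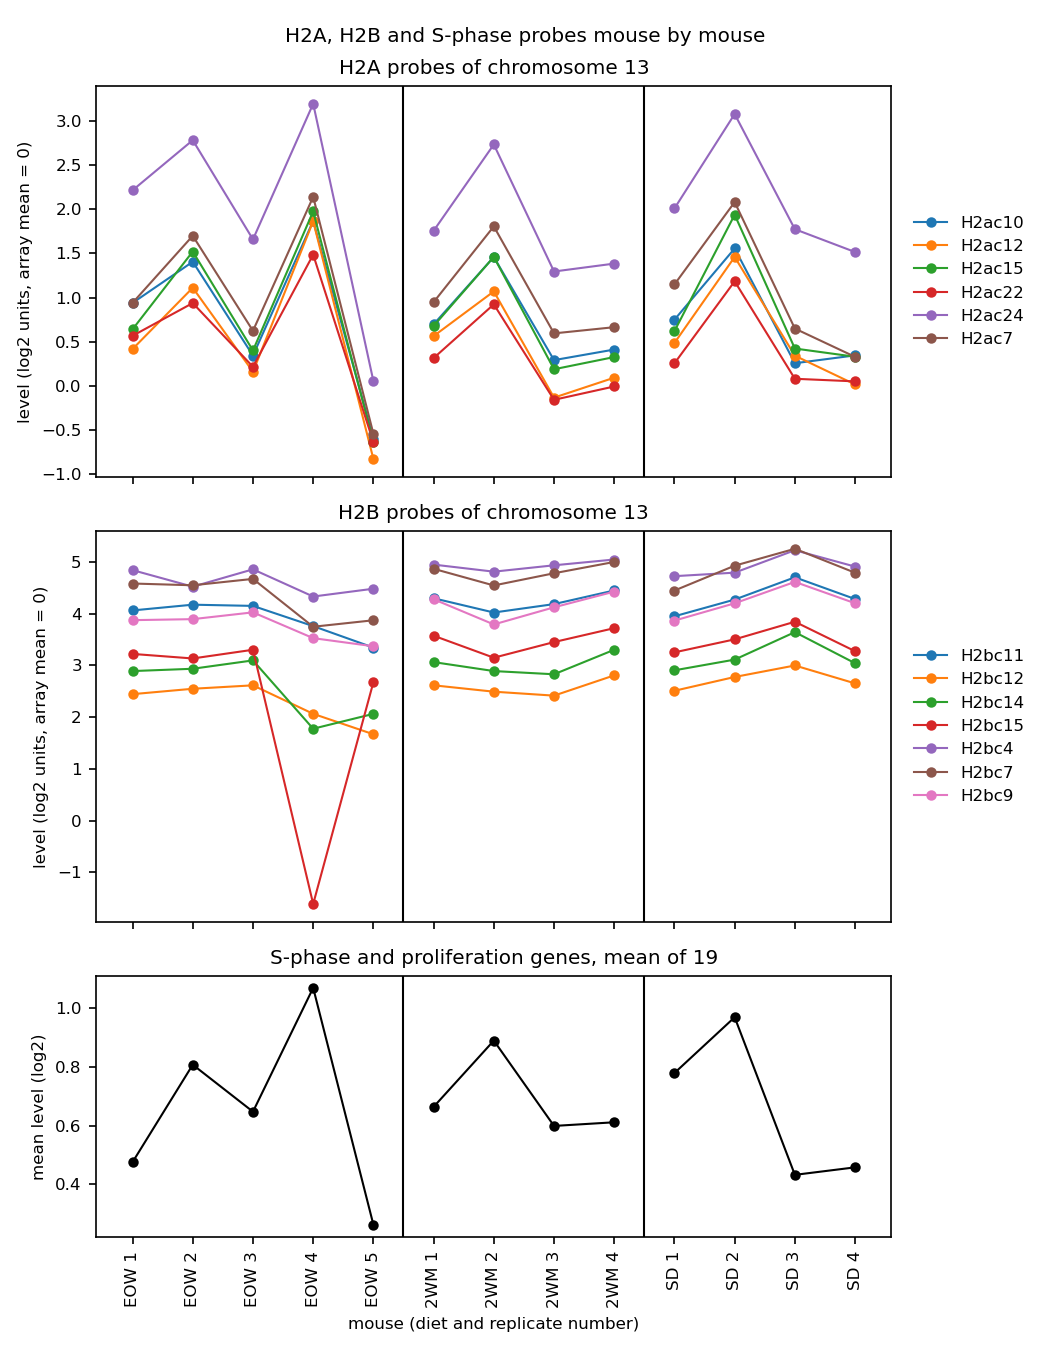
Levels in log2 units (0 is the mean of the array) of 6 H2A probes and 7 H2B probes of chromosome 13, and the mean level of 19 detected S-phase and proliferation genes, in each EOW, 2WM and SD mouse; lines join the values of the same probe within a diet and imply no order of mice. The H2A probes peak in EOW 4, SD 2, 2WM 2 and EOW 2 and are lowest in EOW 5, as is the S-phase mean, while the H2B probes do not follow that order.

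H2A and H2B genes often stand back to back and share the DNA between their starts. Of 6 such pairs with starts within 500 bases of each other, both members were detected in 3, and the H2B member had the lower EOW difference in each. The EOW differences were -0.57 for H2bc7 and -0.08 for H2ac7 (174 bases apart), -0.47 for H2bc12 and -0.03 for H2ac12 (178 bases), and -1.33 for H2bc15 and -0.05 for H2ac15 (164 bases). Without EOW 4 the members of each pair lay much closer, at -0.44 for H2bc7 and -0.37 for H2ac7. The other pairs were then at -0.42 for H2bc12 and -0.36 for H2ac12, and -0.39 for H2bc15 and -0.35 for H2ac15. The 2WM differences lay between -0.18 and 0.00 for all 6 genes. Whether the members of a pair differ in their diet difference was not tested.

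The other H2A genes had small differences between diets. H2ac8 (Hist1h2ae) had levels of -0.80, -0.80, -0.66, -0.74 and -0.86 in EOW livers, -0.66, -0.58, -0.59 and -0.65 in 2WM livers and -0.60, -0.41, -0.61 and -0.60 in SD livers. EOW mice lay below all SD and all 2WM mice, by a mean of -0.22 from SD (limma adjusted p = 0.245) and -0.15 from 2WM (limma adjusted p = 0.498), but the probe was detected on only 1 of 6 EOW arrays and 3 of 5 2WM arrays. The H2A genes of chromosome 3 differed from SD by -0.11 (H2ac18), 0.05 (H2ac20) and 0.02 (H2ac21) in EOW livers. H1f2 (Hist1h1c), a somatic linker histone and the single detected linker gene, had 3.83, 4.18, 4.18, 5.29 and 4.76 in EOW livers, 4.69, 3.96, 4.41 and 4.43 in 2WM livers and 4.75, 4.37, 4.22 and 3.89 in SD livers. EOW 4 was its highest mouse, and its differences were 0.14 for EOW (95% interval -0.44 to 0.72) and 0.07 for 2WM (95% interval -0.55 to 0.68).

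Among the H2A variants, H2ax, whose protein is phosphorylated at DNA breaks, had -0.06, 0.27, -0.17, 0.84 and -0.33 in EOW livers, 0.22, 0.22, 0.09 and 0.24 in 2WM livers and 0.63, 0.80, 0.57 and -0.16 in SD livers. The diets overlapped through EOW 4 and SD 4, and the EOW difference of -0.35 (limma adjusted p = 0.509) was -0.53 without EOW 4 (limma adjusted p = 0.258). H2az1, the variant found at the starts of active genes, had 3.14, 3.65, 3.72, 4.10 and 2.94 in EOW livers, 3.10, 3.60, 3.27 and 3.25 in 2WM livers and 3.48, 3.67, 3.16 and 3.43 in SD livers. It differed from SD by 0.07 (95% interval -0.37 to 0.52) in EOW livers and -0.13 (95% interval -0.60 to 0.34) in 2WM livers. H2aj, a variant described in senescent human fibroblasts, had -0.49, -0.29, -0.37, -0.01 and -0.43 in EOW livers, -0.32, -0.36, -0.48 and -0.36 in 2WM livers and -0.08, 0.02, 0.03 and -0.32 in SD livers. The SD mice other than SD 4 were above all 2WM mice (2WM difference -0.29, SE 0.11, limma adjusted p = 0.759; EOW difference -0.23, limma adjusted p = 0.371).

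Set side by side, the cluster genes had a median EOW difference of -0.22, with 8 positive and 23 negative, and the 5 variants one of -0.01, with 2 positive and 3 negative. Without EOW 4 these medians were -0.36 and -0.12, and that of variants lay between -0.12 and 0.04 as each mouse was left out in turn. Medians of the cluster genes also differed by place in the genome. The 25 of chromosome 13 had a median of -0.34, with 21 negative (25 without EOW 4), and the 6 of chromosome 3 had a median of 0.04, with 2 negative. Those 6 hold no H4 and only H2bc18 of H2B, so these medians mix place with class. For H2A the EOW median was -0.04 over the 6 probes of chromosome 13 other than H2ac8. H2A probes of chromosome 3 differed by -0.11, 0.05 and 0.02. For H2B it was -0.48 on chromosome 13, against -0.04 for H2bc18. H3 probes were negative on chromosome 13 and positive on chromosome 3. Over all tested probes, 6146 of 11143 were negative. H2ac8, H3c1 and H4c3, admitted through SD arrays alone where they are high, are all of chromosome 13. Among probes detected on every array, the EOW median was -0.39 over 14 of chromosome 13 (12 negative) and 0.04 over 6 of chromosome 3. In 2WM livers the medians were -0.09 for cluster genes and -0.13 for variants, and -0.15 for chromosome 13 and 0.00 for chromosome 3. Over the 14 probes of chromosome 13 detected on every array, the 2WM median was -0.08. The 2WM median of cluster genes was -0.18 without SD 1, -0.16 without SD 4, -0.14 without 2WM 1, -0.05 without 2WM 3 and -0.02 without SD 2. That of variants was -0.23 without 2WM 2, -0.22 without SD 3, -0.06 without 2WM 1 and -0.05 without SD 2. Members of a class are not replicates, and no test was made between classes.

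**Figure D4:**
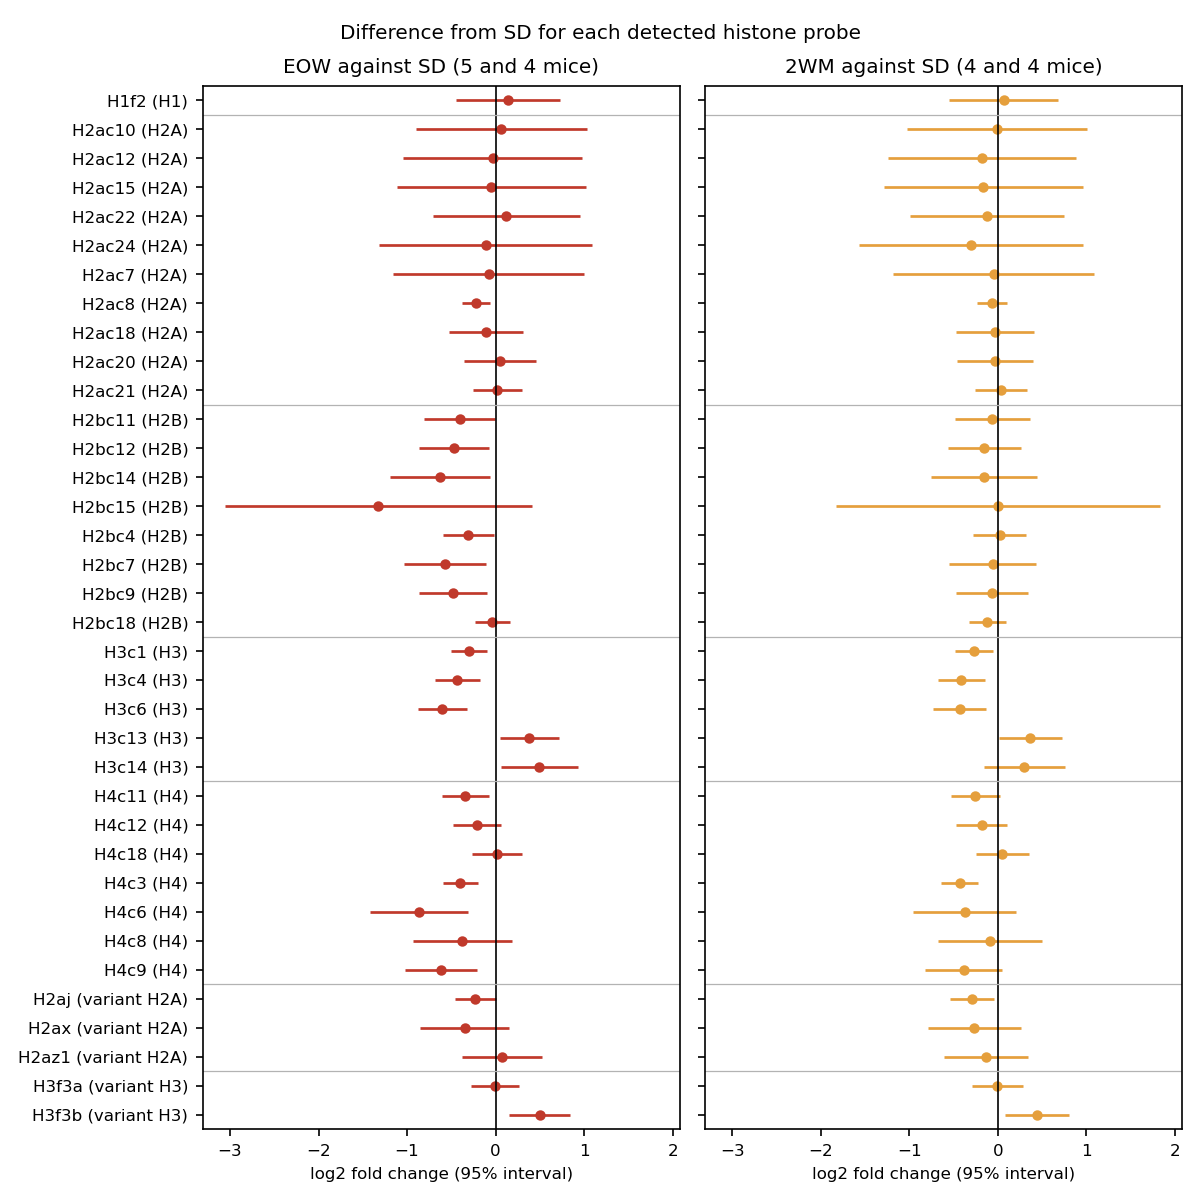
Log2 fold change from SD with its 95% interval for each of the 36 detected histone probes, for EOW against SD (left) and 2WM against SD (right), in rows by class. Point estimates of most H2B, H3 and H4 probes of chromosome 13 lie below 0 in EOW livers. The intervals of H2ac7, H2ac10, H2ac12, H2ac15, H2ac22 and H2ac24 are wide and span 0, while the EOW interval of H2ac8 lies below 0. Point estimates of H3c13, H3c14 and H3f3b lie above 0 for both schedules, and the 2WM interval of H3c14 spans 0.

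No histone probe passed the adjusted threshold in 2WM against SD livers either, where again 0% of all probes passed. At an unadjusted p under 0.05, 5 were lower (3.71% of all probes), namely H2aj, H3c1, H3c4, H3c6 and H4c3, and 2 were higher (2.23% of all), H3c13 and H3f3b. The mice did not overlap in 4 probes that were lower (3.66% of all probes), H3c4, H3c6, H4c3 and H4c6, and in 1 that was higher (2.16%). H3c6, H4c3 and H4c6 had every mouse of both schedules below every SD mouse, as had 0.503% of all probes. H4c3 was admitted through SD arrays alone and both schedules share the SD mice, so nothing is read from this count. Among probes detected on every array, 2 were lower (4.05% of all so detected) and 2 higher (2.37%). The count of 5 was 3 without SD 2. When EOW 4 was left out of the fit, which alters only the shared estimate of the spread, 8 were lower (5.6% of all) and 2 higher (3.16%). The count of 2 was 0 without 2WM 1 or without SD 3, and 1 without SD 1, SD 2, EOW 2, 2WM 2, 2WM 3 or 2WM 4.

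EOW and 2WM livers differed in 0 histone probes at the adjusted threshold (0% of all probes). At an unadjusted p under 0.05, 3 were lower in EOW livers (5.4% of all), all of them H2B genes (H2bc4, H2bc7 and H2bc9), and 0 were higher (5.26%). All 3 were detected on every array, and the shares of probes so detected were 5.75% lower and 5.65% higher. H2bc4 differed by -0.33 (limma adjusted p = 0.397) and H2bc9 by -0.42 (limma adjusted p = 0.436). H2ac8 alone did not overlap between these groups (1.97% of all probes were lower without overlap), and 0 probes were higher without overlap (1.99% of all). Without EOW 4, 2 were lower (5.72% of all) and 0 higher (5.3%). The count of 3 was 0 without EOW 5, 2WM 1 or 2WM 4, 1 without 2WM 3, and 6 without EOW 3.

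The genes that make and handle histones were read beside the same shares of all probes at an unadjusted p under 0.05, which were 5.59% higher and 8.25% lower in EOW livers and 2.23% higher and 3.71% lower in 2WM livers. Of 20 genes for the 3-prime processing and turnover of histone messages, 11 were detected and 0 had an unadjusted p under 0.05 in EOW or 2WM against SD livers. The smallest p values belonged to Smg1, a kinase of message decay (EOW difference 0.42, limma adjusted p = 0.413), Ncbp2, a cap-binding subunit (-0.21, limma adjusted p = 0.447), and Cpsf2, a cleavage factor subunit (-0.28). Of 38 histone chaperones and variant exchange factors, 20 were detected, and 2 were higher in EOW livers at an unadjusted p under 0.05 (Nap1l4, 0.27, limma adjusted p = 0.305; Npm1, 0.37, limma adjusted p = 0.352) and 0 lower. In 2WM livers 0 chaperones reached that p, and Asf1a, which hands H3 and H4 to the assembly factors, differed by -0.18 (limma adjusted p = 0.87).

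In the S-phase list, 1 gene was higher in EOW livers (Cdt1, a licensing factor, 0.55, limma adjusted p = 0.265) and 1 lower (Tyms, thymidylate synthase, -0.33) at an unadjusted p under 0.05. In 2WM livers, 1 was higher (Pcna, the sliding clamp, 0.36, limma adjusted p = 0.759) and 1 lower (Tk1, thymidine kinase, -0.64, limma adjusted p = 0.543). Of 24 other chromatin proteins, 12 were detected, with 1 lower and 0 higher in EOW livers (Cbx5, a heterochromatin protein, -0.20, limma adjusted p = 0.34) and 0 in 2WM livers. Between EOW and 2WM livers, 2 chaperones and 2 S-phase genes were higher in EOW livers at that p (5.26% of all probes were) and 0 were lower (5.4%). In the 3-prime processing and other chromatin lists, 0 genes reached it. The erythroid enzyme Alas2, named after its values were seen, had levels of -0.38, 0.88, 0.28, 0.90 and -0.30 in EOW livers, 1.52, 0.11, 2.15 and 2.24 in 2WM livers and 1.56, 2.66, 3.08 and 1.66 in SD livers (EOW difference -1.96, SE 0.47, limma adjusted p = 0.159). All EOW mice lay below all SD mice in it. Hba-a1, the other detected erythroid gene, differed by -0.42 in EOW livers. Between EOW and 2WM livers the difference was -1.23 for Alas2 and 0.43 for Hba-a1. In each comparison 0 of these genes passed the adjusted threshold.

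Detection itself differed between classes. Cluster probes were detected for 1 of 6 H1, 10 of 14 H2A, 8 of 16 H2B, 5 of 12 H3 and 7 of 11 H4 probes. Variant probes were detected for 3 of 3 H2A and 2 of 3 H3 probes, and 0 of 4 probes of other linker genes (H1f7, H1f8 and H1f10) were. Of the 33 probes outside the set, 18 were detected on 0 of 16 arrays and 15 on 1 to 13 arrays. For 4 genes with a detected probe, another probe was among these 33. It was detected on 11 arrays for H2bc4, 9 for H3f3a, 5 for H3c14 and 0 for H2bc18. Whether the probes of such a gene differ in their diet difference was not tested. Of the 36 detected probes, 25 were detected on all 16 arrays. Detection on every array of a group held for SD and 1 other group in 8, for SD alone in 3 (H2ac8, H3c1 and H4c3), and without SD in 0. The lowest level that counted as detected was -0.75 to -0.59, according to the array, and array medians ran from 127.2 to 164.5 signal units in EOW mice, 161.5 to 178.1 in 2WM mice and 145.3 to 184.9 in SD mice.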

How the data were processed

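Liver RNA of 13 mice was read on 16 Illumina arrays, since replicate 1 of each diet had a repeat array. The deposited intensity of each probe and the deposited detection p-value came from GenomeStudio 2011.1, per the labels, with no background subtraction or normalization stated. The authors also deposited Z scores within each array, and the log2 signals scaled the same way here differed from that score by at most 0.000106. Here, log2 intensity was brought to a Z score within each array and rescaled with the average array standard deviation (1.46), and arrays of the same mouse were averaged. Probes detected (p under 0.05) on all arrays of 1 or more diets (11143 of 25697) entered limma 3.58.1 in R 4.3.3 (lmFit and eBayes, 3 groups in a single fit, 10 residual degrees of freedom, Benjamini-Hochberg adjustment), which was tested on simulated data. The number of mice limits the precision. Single probes were also given an exact permutation test. Described mouse by mouse were the 20 probes with the smallest p among those with an unadjusted p under 0.05, without overlap between groups, or of variants; H3f3a was the 21st and is added, as are H1f2, H2bc15 and H2ac24, chosen after their values were seen. Members and gene lists were chosen with earlier results of these data known. Slide and scan batches are not given in the sources used here. H1f0 and H2az2 were not analysed here. Alternatives were quantile normalization, median centring, neqc, the deposited matrix, filters on dim probes, array choice, array weights, an intensity trend, 1 probe a gene, pairwise fits, a replicate block and leaving out each mouse.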

Additional observations from a re-analysis of the deposited data

Results flagged for a closer look

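The levels of 20 named probes were examined within each of the 3 diets, 60 sets in all. In 7 of these sets, a single mouse lay farther from the rest of its diet than Dixon's 95% limit allows. Chance gives about 1 in 20 for independent sets. These sets come from the same 13 mice and are not independent, so the count was not tested. In EOW livers, H4c6 was -1.57 in EOW 4, against -0.32 to 0.11 in the other EOW mice. In 2WM livers, H4c3 was -0.72 in 2WM 1 (others -0.61 to -0.59), H4c9 was 0.33 in 2WM 2 (others 0.49 to 0.50) and H2ax was 0.0939 in 2WM 3 (others 0.22 to 0.24). In SD livers, H2ac8 was -0.41 in SD 2 (others -0.61 to -0.60), H3c1 was -0.16 in SD 2 (others -0.53 to -0.49) and H4c11 was 0.0304 in SD 1 (others 0.32 to 0.37). In 0 probes did every mouse of EOW and every mouse of 2WM lie on opposite sides of the SD mean.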

How the results depend on the processing

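Across 27 other settings, 29 differences of named probes were recomputed 767 times. The 29 were those with an unadjusted limma p under 0.05 or no overlap in the main fit, where 0 passed the adjusted threshold. Of the 767, 765 kept their direction and stayed uncalled, 0 reversed and 2 came to pass the threshold, both with array weights. Differences chosen this way tend to keep their direction, so these counts are no test of it. In EOW against SD and likewise in 2WM against SD, array weights gave 1 histone probe called in place of 0. The probe called in 2WM against SD was H4c3, which entered the set through SD arrays alone. The median of cluster genes in EOW against SD was -0.40 with neqc and -0.07 with no filter on dim probes, in place of -0.22. That of variants in 2WM against SD was -0.33 with median centring and -0.07 with no filter on dim probes, in place of -0.13. The cause was not tested. Leaving out each mouse in turn gave 0 to 0 histone probes called in each comparison. The cluster median then ranged from -0.36 to -0.19 in EOW against SD, from -0.18 to -0.02 in 2WM against SD and from -0.17 to -0.01 in EOW against 2WM. The variant median ranged from -0.12 to 0.04, from -0.23 to -0.05 and from -0.01 to 0.08 in the same order. With the replicate number as a block, 8 histone probes were lower and 1 higher in EOW against SD at an unadjusted p under 0.05, 0 lower and 1 higher in EOW against 2WM, and 0 were called in any comparison; correlations of same-numbered mice ran from -0.38 to 0.33 over 12 pairs, so the numbers do not pair the mice. Counts of probes called over the whole array were 12, 41 and 4 with array weights in EOW against SD, 2WM against SD and EOW against 2WM, in place of 0, 0 and 0. At an unadjusted p under 0.05, 9 histone probes were lower in EOW against SD when only probes detected on all arrays were kept, a setting chosen after seeing the data. In 2WM against SD, 3 were lower with the stricter detection filter, 8 in the fit of those groups alone and 9 with array weights; 0 were higher with median centring. Probes near the detection threshold (H2ac8, H3c1, H4c3) are limited by signal over background, and with neqc their EOW differences were -0.68, -0.89 and -1.05.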
